A study of Mus musculus with 37 samples.

Results

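The primitive streak and neuromesodermal progenitor factors T, Sox2, Sox3, Nkx1-2, Mixl1, Eomes and Evx1 were followed in mouse tailbud over 6 to 11 somites. These 7 genes were taken by symbol from the 35542 genes of the raw count table. The rule named symbols and no measured value, but the set was chosen with earlier results of these data known. RNA-seq was performed on 37 tailbuds of C57BL/6/Cast F1 embryos at embryonic day 8 to 8.5, 1 library per embryo, to compare somite-matched embryos with and without maternal SMCHD1, a chromatin protein of gene silencing. All embryos had a C57BL/6 mother from the MMTV-Cre line and a Castaneus father. The 21 Smchd1wt embryos carried the genotype Smchd1 fl/+ and came from floxed mothers without the Cre transgene. The 16 Smchd1matΔ embryos carried Smchd1 del/+ and came from Smchd1 del/fl mothers with MMTV-Cre, so their oocytes lacked SMCHD1 and their maternal allele was deleted as well. Absence of the oocyte supply and heterozygosity of the embryo cannot be told apart within these groups. Each stage held 3 or 4 Smchd1wt embryos, with 4 each at 6, 7 and 10 somites and 3 each at 8, 9 and 11. Smchd1matΔ embryos numbered 4 with 6 somites, 3 each with 7 and 10, and 2 each with 8, 9 and 11. MMTV-Cre deletes the allele in the oocyte lineage, the paternal Castaneus allele was intact, and the tissue was cut behind the last somite.

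Gastrulating cells pass through the primitive streak, where the T-box factors T and Eomes and the homeodomain factors Mixl1 and Evx1 are switched on. As the streak regresses, the caudal end keeps a pool of neuromesodermal progenitors, cells that hold T together with the SOX factor Sox2 and that feed both the spinal cord and the paraxial mesoderm. Nkx1-2 marks the caudal lateral epiblast and preneural tube that house these cells, and Sox3 is the X-linked relative of Sox2 expressed in neural progenitors.

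Total counts ranged from 3.06 to 80.6 M per library in Smchd1wt and from 0.916 to 30.2 M in Smchd1matΔ embryos, the lowest being Smchd1matΔ replicate 3 at 6 somites. Whether the replicates of a group came from separate litters was not stated. Smchd1, read first as a check of the genotypes, measured 149 ± 22.2 CPM (SD, n = 21) in Smchd1wt and 89.0 ± 13.3 CPM (SD, n = 16) in Smchd1matΔ embryos, where CPM is the usual depth-scaled count of a gene, taken on TMM-normalised library sizes. The difference was -0.74 ± 0.07 (SE) on the log2 scale (edgeR's quasi-likelihood test, adjusted p = 1.27e-07). Replicates 1 and 2 of the Smchd1matΔ embryos at 6 somites held 1.82 to 2.77% of their counts at the ribosomal RNA locus, against 0.176 to 1.28% in the other 35 libraries. Markers of other tissues varied widely between tailbuds, the summed CPM of 12 gut and visceral endoderm genes running from 102 to 4654 and that of 9 primitive erythroid genes from 10.2 to 4255. The defining tailbud gene T was counted in all 37 libraries (252 to 16778 counts). Of 10 somite markers Pax1 was at 0 in each library, but somite RNA was not absent. The 10 markers summed to 14.5 to 40.4 CPM in Smchd1wt and 7.72 to 193 CPM in Smchd1matΔ embryos. All embryos with 6 somites, and all Smchd1matΔ embryos with 8 or 9 somites, were female.

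In the GRCm38 annotation T lies on chromosome 17 from 8434423 to 8442496 with 8 exons, and Evx1 on chromosome 6 from 52313498 to 52318378 with 3 exons, both on the plus strand. Nkx1-2 lies on chromosome 7 from 132594878 to 132599637 and Mixl1 on chromosome 1 from 180693043 to 180697034, each with 2 exons on the minus strand. Eomes has 6 exons on chromosome 9 from 118478212 to 118486132, plus strand. Sox2, on the plus strand of chromosome 3 from 34650405 to 34652461, and Sox3, on the minus strand of the X chromosome from 60891366 to 60893430, are single-exon genes. The antisense gene Evx1os covers 73 of the 2877 exonic bases of Evx1 and drew 57807 counts over all libraries, against 56211 for Evx1. Gm16764 covers 541 of the 3264 exonic bases of Nkx1-2 from the other strand with 9254 counts, against 97625 for Nkx1-2. Gm33460 covers 118 of the 4155 exonic bases of Eomes from the other strand with 2 counts. Which of the stranded and unstranded kits made a library was not stated, so reads in these shared bases cannot be assigned to one strand. Nkx1-2 lies within the span of Fgfr2 and Sox2 within that of Sox2ot, on the same strand and without shared exonic bases. Gm27611 lies 717 bases from Sox2, and Gm14662 223 bases from Sox3.

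The promoters of Nkx1-2, the member whose slope passed the test, and of T and Sox2, whose joint expression defines the progenitors, are printed as the 250 bases before the RefSeq transcription start, 5′ to 3′ on the strand of the gene, in GRCm38.p6. The window of Nkx1-2 is chr7:132599638-132599887, minus strand. The window of T is chr17:8434173-8434422, plus strand. The window of Sox2 is chr3:34649745-34649994, plus strand. Unlike the windows of Nkx1-2 and T, it does not adjoin the counted gene, which starts at 34650405 in the annotation.
Nkx1-2: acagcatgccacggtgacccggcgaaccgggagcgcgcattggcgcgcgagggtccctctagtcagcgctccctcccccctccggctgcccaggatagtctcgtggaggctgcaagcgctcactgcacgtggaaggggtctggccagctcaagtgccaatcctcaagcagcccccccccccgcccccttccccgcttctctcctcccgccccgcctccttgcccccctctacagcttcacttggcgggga
T: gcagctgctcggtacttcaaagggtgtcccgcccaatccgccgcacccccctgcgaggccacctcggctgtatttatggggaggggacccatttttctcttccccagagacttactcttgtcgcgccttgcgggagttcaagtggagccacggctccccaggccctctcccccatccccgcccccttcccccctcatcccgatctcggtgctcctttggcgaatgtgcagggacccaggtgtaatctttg
Sox2: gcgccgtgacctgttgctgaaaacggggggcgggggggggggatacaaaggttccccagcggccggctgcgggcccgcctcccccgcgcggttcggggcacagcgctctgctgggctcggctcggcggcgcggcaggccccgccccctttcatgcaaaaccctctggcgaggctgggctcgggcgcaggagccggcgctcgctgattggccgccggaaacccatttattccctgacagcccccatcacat

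RefSeq promoters were found for 5 of the 7 members, all but Sox3 and Mixl1. The windows were searched on both strands for the T-box motif TCACACC, the SOX motif ACAATGG and the TCF/LEF motif CTTTGAT, and a match would have been written in capitals. None of these letters occurred in the 5 windows. Over 32851 mouse promoters of the same length, 3.33% held the T-box motif, 3.02% the SOX motif and 3.21% the TCF/LEF motif.

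Compared per length of exon, T was the most abundant member and Eomes was close to absent. Medians over the 37 embryos were 100.3 CPM per kb of exon for T, 54.2 for Nkx1-2, 35.5 for Evx1, 15.1 for Sox2, 8.54 for Mixl1, 2.67 for Sox3 and 0.0291 for Eomes. T exceeded Nkx1-2 in 37 of 37 embryos, Nkx1-2 exceeded Evx1 in 36, Evx1 exceeded Sox2 in 36 and Sox2 exceeded Mixl1 in 35 on this per-length scale. Mixl1 exceeded Sox3, and Sox3 exceeded Eomes, in 37 of 37 embryos. The order therefore held in nearly every tailbud, and Sox2 against Mixl1 was the pair with the most exceptions. With the 6 stages ordered by mean CPM, the ranges of neighbours in that order overlapped in 5 of 5 cases for each tested member and genotype, except Nkx1-2 in Smchd1wt and Mixl1 in Smchd1matΔ embryos, with 4 of 5 each.

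Eomes, which drives mesoderm and definitive endoderm formation in the early streak, drew 139 counts in all 37 libraries. It had 0 counts in 12 libraries, 9 of 21 Smchd1wt and 3 of 16 Smchd1matΔ, and the largest count was 16. The filter on low counts removed Eomes, so 6 of the 7 members were tested. In the fits without the filter Eomes did not pass either: its slope was -0.06 ± 0.24 (SE) log2 units per somite in Smchd1wt (adjusted p = 0.938) and -0.70 ± 0.24 (SE) in Smchd1matΔ embryos (unadjusted p-value of 0.00708, adjusted p = 0.134), and the difference in slope was -0.70 ± 0.35 (SE) (adjusted p = 0.786). Between genotypes at 6 somites Eomes was at 2.22 ± 1.22 (SE) in log2 (unadjusted p-value of 0.0720, adjusted p = 0.560), and these values rest on few counts. A count of 0 allows up to 3 counts in a library, and this limit covers counting error only.

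**Figure D1:**
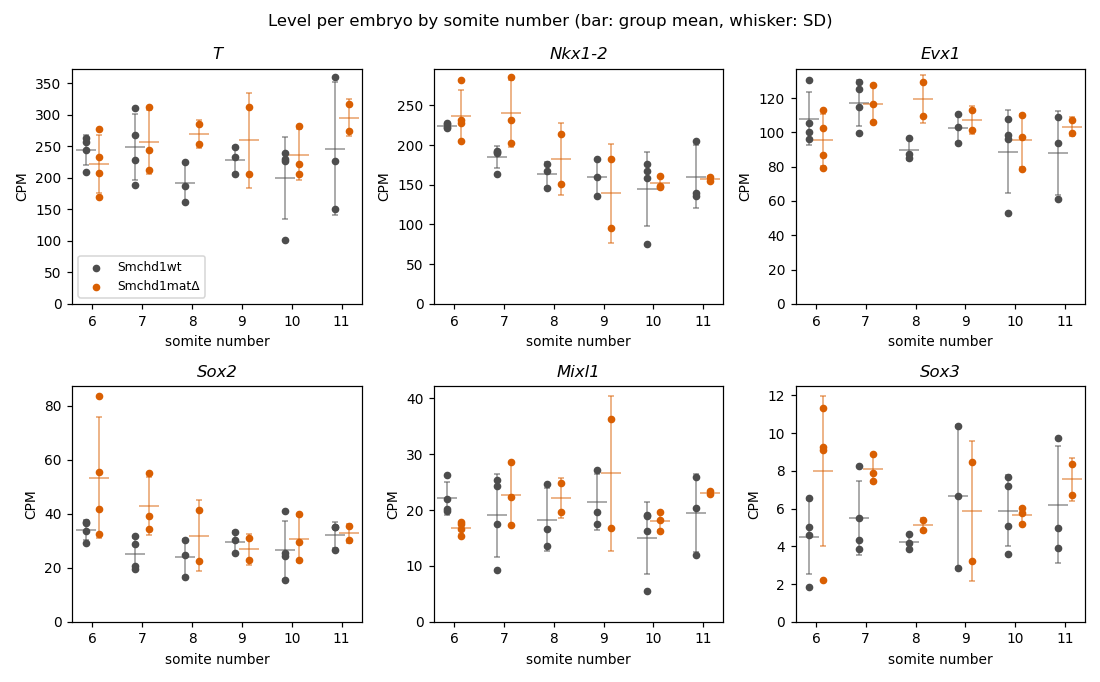
CPM of the 6 members that passed the filter on low counts (y axis, from 0) against somite number (x axis), 1 point per embryo, grey for Smchd1wt and orange for Smchd1matΔ, with the group mean as a bar and the SD as a whisker. Nkx1-2 runs from 222 to 228 CPM in the 4 Smchd1wt embryos with 6 somites and from 76.0 to 206 in the 17 older ones. T shows wide spread at most stages, and its ranges overlap between these embryos. The share of all genes that separate these embryos as Nkx1-2 does was not counted.

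Nkx1-2, the homeobox gene of the caudal lateral epiblast, fell with somite number in both genotypes. At 6 somites Nkx1-2 measured 223, 222, 228 and 227 CPM in Smchd1wt replicates 1 to 4 and 282, 228, 205 and 232 CPM in Smchd1matΔ replicates 1 to 4. At 7 somites its CPM were 190.3, 164, 193 and 192 in Smchd1wt and 203, 232 and 286 in Smchd1matΔ embryos. The 4 Smchd1wt embryos with 6 somites, all female, were above the 17 older Smchd1wt embryos. The share of all genes with such a separation was not counted. At 8 somites the CPM were 146, 168 and 176 in Smchd1wt and 151 and 215 in Smchd1matΔ embryos. At 9 somites Smchd1wt embryos had 183, 136 and 159.8 CPM and Smchd1matΔ embryos 183 and 95.4 CPM. Genotypes overlapped at both of these stages. At 10 somites the CPM of Nkx1-2 were 76.0, 159, 177 and 168 in Smchd1wt and 148, 147 and 161 in Smchd1matΔ embryos. At 11 somites they were 135, 206 and 139.9 in Smchd1wt and 155 and 160.4 in Smchd1matΔ embryos. The single lowest tailbud of the series was Smchd1wt replicate 1 at 10 somites, and the 7 Smchd1matΔ embryos with 6 or 7 somites (203 to 286 CPM) overlapped the 9 older ones (95.4 to 215 CPM) in their ranges.

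The fitted slope of Nkx1-2 was -0.11 ± 0.03 (SE) log2 units per somite in Smchd1wt embryos (edgeR's quasi-likelihood test, adjusted p = 0.0294), which is a ratio of 0.687 over the 5 somites of the series. In Smchd1matΔ embryos it was -0.15 ± 0.04 (SE) log2 units per somite (adjusted p = 0.0311), a ratio of 0.586. Of the 6 members tested, Nkx1-2 was the only one to pass in either genotype, against 6.61% of all 15667 genes tested on Smchd1wt (3.06% rising and 3.55% falling) and 2.95% of all 16222 genes tested on Smchd1matΔ embryos (1.85% rising and 1.1% falling). In bulk tissue, fewer cells of a type and less RNA per cell cannot be told apart. Without the embryos of 6 somites the slope was -0.10 ± 0.05 (SE) with adjusted p = 0.464 in Smchd1wt, and -0.17 ± 0.05 (SE) with adjusted p = 0.178 in Smchd1matΔ embryos. Leaving out 1 embryo at a time kept the slope between -0.13 and -0.09 in Smchd1wt with the call in 17 of 21 fits, and between -0.18 and -0.14 in Smchd1matΔ with the call in 12 of 16. The call was also lost in Smchd1matΔ embryos without the pair with the high ribosomal share (-0.15 ± 0.04 (SE), adjusted p = 0.101), and in Smchd1wt embryos without sex in the fit (-0.11 ± 0.03 (SE), adjusted p = 0.0507).

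The embryos whose removal ended the call were Smchd1wt replicates 1, 3 and 4 at 6 somites (adjusted p = 0.0552, 0.0508 and 0.0575) and replicate 3 at 11 somites (adjusted p = 0.0698). In Smchd1matΔ embryos they were replicate 1 at 6 somites (adjusted p = 0.0564), replicates 1 and 2 at 7 somites (adjusted p = 0.0504 and 0.0661) and replicate 3 at 10 somites (adjusted p = 0.0607). Markers of other tissues moved over the same stages: in Smchd1wt embryos all 12 gut and visceral endoderm genes had negative slopes and 5 of them passed, their summed CPM being 610.5 to 2307 at 6 somites and 102 to 418 at 11 somites. In Smchd1matΔ embryos all 12 had negative slopes and none passed, with sums of 1491 to 2175 CPM at 6 and 143 to 643 CPM at 11 somites. All 9 primitive erythroid genes had positive slopes in both genotypes with 1 passing in each, and in Smchd1wt their summed CPM was 67.2 to 149 at 6 and 598 to 1195 at 11 somites. In Smchd1matΔ embryos the erythroid sum was 39.7 to 3132 CPM at 6 and 1810.1 to 4255 CPM at 11 somites, and these ranges overlapped. No gene of either list was at 0 in every library, and the part of these tissues in the slope of Nkx1-2 was not tested.

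**Figure D2:**
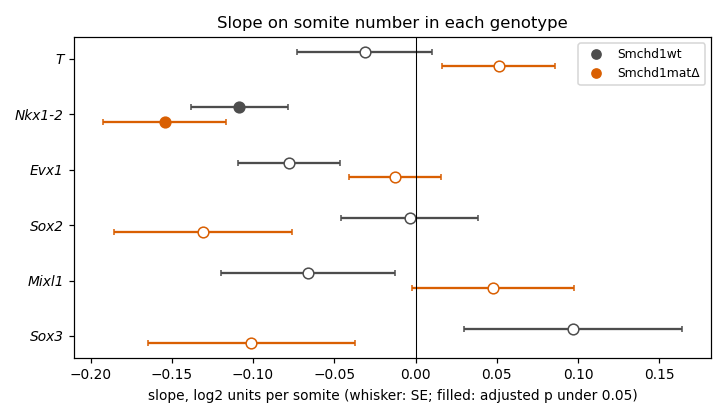
Slope on somite number in log2 units per somite (x axis) for the 6 members tested, with the SE as a whisker, grey for Smchd1wt and orange for Smchd1matΔ. Filled points, for Nkx1-2 alone, mark an adjusted p under 0.05.

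T, or Brachyury, the T-box factor needed for mesoderm formation and axis elongation, had no slope that passed the test. Its slope was -0.03 ± 0.04 (SE) log2 units per somite in Smchd1wt (adjusted p = 0.72) and 0.05 ± 0.03 (SE) in Smchd1matΔ embryos (adjusted p = 0.487). At 6 somites T measured 209, 244, 263 and 256 CPM in Smchd1wt and 208, 169, 278 and 232 CPM in Smchd1matΔ embryos. At 7 somites T stood at 267, 228, 309.8 and 189 CPM in Smchd1wt and 312, 245 and 213 CPM in Smchd1matΔ embryos. Genotypes overlapped at both stages. At 8 somites the T levels were 224, 187 and 162 CPM in Smchd1wt and 254 and 285 CPM in Smchd1matΔ embryos. At 9 somites they were 205, 232 and 248 CPM in Smchd1wt and 205 and 313 CPM in Smchd1matΔ embryos. At 8 somites both Smchd1matΔ embryos were above the 3 Smchd1wt embryos, and at 9 somites the ranges overlapped. At 10 somites T measured 102, 239.7, 229.8 and 227 CPM in Smchd1wt and 221, 205 and 282 CPM in Smchd1matΔ embryos. At 11 somites the values were 151, 360.0 and 227 CPM in Smchd1wt and 316 and 274 CPM in Smchd1matΔ embryos. The lowest and the highest T level of the series, 102 and 360.0 CPM, were both in Smchd1wt embryos, at 10 and 11 somites.

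Evx1, a homeobox gene of the posterior streak, ran from 108 ± 15.6 CPM (SD, n = 4) at 6 somites and 117 ± 13.3 CPM (SD, n = 4) at 7 somites to 88.8 ± 24.3 CPM (SD, n = 4) at 10 somites and 88.1 ± 24.4 CPM (SD, n = 3) at 11 somites in Smchd1wt embryos. Its slope there was -0.08 ± 0.03 (SE) log2 units per somite, with an unadjusted p-value of 0.0213 and adjusted p = 0.148. In Smchd1matΔ embryos the slope of Evx1 was -0.01 ± 0.03 (SE) (adjusted p = 0.876), and the level was 95.4 ± 15.1 CPM (SD, n = 4) at 6 somites and 103 ± 5.42 CPM (SD, n = 2) at 11 somites. Mixl1, the paired-type homeobox gene of the streak, had a slope of -0.07 ± 0.05 (SE) in Smchd1wt (adjusted p = 0.517) and 0.05 ± 0.05 (SE) in Smchd1matΔ embryos (adjusted p = 0.677). Its levels spanned 5.52 to 27.2 CPM in Smchd1wt and 15.3 to 36.4 CPM in Smchd1matΔ embryos, the lowest in Smchd1wt replicate 1 at 10 somites and the highest in Smchd1matΔ replicate 2 at 9 somites. Neither gene passed the test in either genotype.

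Sox2, the SOX factor of neural and neuromesodermal progenitors, had its largest differences between genotypes at 6 and 7 somites, none of which passed the test. At 6 somites Sox2 measured 37.0, 33.6, 29.1 and 36.5 CPM in Smchd1wt and 55.4, 41.7, 83.8 and 32.7 CPM in Smchd1matΔ embryos. At 7 somites Sox2 was at 19.4, 28.7, 31.8 and 20.6 CPM in Smchd1wt and 34.4, 39.0 and 55.2 CPM in Smchd1matΔ embryos. The ranges overlapped at 6 somites through Smchd1matΔ replicate 4, and at 7 somites the 3 Smchd1matΔ embryos were all above the 4 Smchd1wt embryos. At 8 somites the Sox2 levels were 16.7, 30.3 and 24.8 CPM in Smchd1wt and 22.6 and 41.3 CPM in Smchd1matΔ embryos. At 9 somites they were 33.2, 30.1 and 25.3 CPM in Smchd1wt and 31.0 and 22.8 CPM in Smchd1matΔ embryos. Both stages showed overlapping genotypes. At 10 somites Sox2 stood at 15.5, 24.3, 25.5 and 41.1 CPM in Smchd1wt and 22.8, 29.6 and 39.8 CPM in Smchd1matΔ embryos. At 11 somites it stood at 35.1, 35.1 and 26.7 CPM in Smchd1wt and 35.3 and 30.3 CPM in Smchd1matΔ embryos. From 8 somites onward the genotypes could not be separated by level.

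Sox2 had a slope of -0.00345 ± 0.0422 (SE) log2 units per somite in Smchd1wt (adjusted p = 0.976) and of -0.13 ± 0.05 (SE) in Smchd1matΔ embryos, the latter with an unadjusted p-value of 0.0275 and adjusted p = 0.223. The log2 ratio of Sox2 to T, both per length, was -2.67 ± 0.28 (SD, n = 4) in Smchd1wt and -1.95 ± 0.49 (SD, n = 4) in Smchd1matΔ embryos at 6 somites. At 7 somites it was -3.14 ± 0.34 (SD, n = 4) and -2.42 ± 0.62 (SD, n = 3), and at 11 somites -2.68 ± 0.66 (SD, n = 3) and -3.00 ± 0.01 (SD, n = 2). The ratio was given as a description and its ranges overlapped between genotypes at each of these stages.

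Sox3 was the lowest member tested, with 2 to 849 counts per library. At 6 somites Sox3 measured 5.05, 1.84, 6.55 and 4.57 CPM in Smchd1wt and 11.3, 9.12, 2.20 and 9.28 CPM in Smchd1matΔ embryos. At 7 somites its level was 3.85, 8.24, 4.35 and 5.51 CPM in Smchd1wt and 7.46, 7.88 and 8.90 CPM in Smchd1matΔ embryos. Of the 4 Smchd1matΔ embryos with 6 somites, 3 were above every Smchd1wt embryo of that stage, and the exception, replicate 3, was the shallowest library with 2 counts of Sox3. At 8 to 11 somites Sox3 ranged from 2.87 to 10.4 CPM in Smchd1wt and from 3.23 to 8.47 CPM in Smchd1matΔ embryos. Its slope was 0.10 ± 0.07 (SE) log2 units per somite in Smchd1wt (adjusted p = 0.435) and -0.10 ± 0.06 (SE) in Smchd1matΔ embryos (adjusted p = 0.446). As Sox3 is X-linked, its level was also read by sex: the median was 5.07 CPM in 13 Smchd1wt females, 6.74 in 11 Smchd1matΔ females, 4.51 in 8 Smchd1wt males and 7.46 in 5 Smchd1matΔ males. The median was higher in Smchd1matΔ embryos of both sexes, with overlapping ranges.

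Over all stages together, with somite number and sex in the fit, no member passed the test between genotypes. Sox2 had a difference of 0.33 ± 0.13 (SE) (Smchd1matΔ minus Smchd1wt, log2) with an unadjusted p-value of 0.0122 and adjusted p = 0.864, and Sox3 of 0.35 ± 0.18 (SE) with an unadjusted p-value of 0.0568 and adjusted p = 0.865. The other members tested had smaller values, 0.15 ± 0.10 (SE) for T (adjusted p = 0.871), 0.13 ± 0.13 (SE) for Mixl1 (adjusted p = 0.912), 0.09 ± 0.08 (SE) for Nkx1-2 (adjusted p = 0.903) and 0.08 ± 0.08 (SE) for Evx1 (adjusted p = 0.906). All 6 differences were positive, with a median of 0.14 against 0.0026 over all genes, of which 51.1% were positive. This was not particular to the members, which share the same embryos. Positive were also 14 of 15 axial progenitor, 8 of 9 early neural (median 0.22), 7 of 9 streak and node (median 0.27) and 12 of 12 gut and visceral endoderm genes. The somite markers had the highest median, 0.60, with 4 of 4 tested genes positive. Paraxial mesoderm genes were positive in 6 of 8 cases, erythroid genes in 5 of 9, and germ cell and pluripotency genes in 5 of 7. Of the endothelial genes 0 of 8 were positive, and of the allantois and extraembryonic mesoderm genes 3 of 7. At the adjusted threshold 0.0136% of the 14733 genes tested were called (0.00679% higher and 0.00679% lower), namely Smchd1 and Peg12, a paternally expressed imprinted gene named after its value was seen (0.48 ± 0.07 (SE), adjusted p = 0.000639). At an unadjusted p-value under 0.05 the share was 5.66% of all genes and 1 of the 6 members.

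At single stages 0% of genes were called by edgeR's quasi-likelihood test at any somite number, and no member passed. At 6 somites Sox2 differed by 0.55 ± 0.27 (SE) on the log2 scale (unadjusted p-value of 0.0478, adjusted p = 0.426) and Sox3 by 0.96 ± 0.38 (SE) (unadjusted p-value of 0.0178, adjusted p = 0.341), so 2 of 6 members were under an unadjusted 0.05 where 11.5% of all genes were. At 7 somites Sox2 differed by 0.75 ± 0.28 (SE) (unadjusted p-value of 0.0127, adjusted p = 0.9998), the only member under an unadjusted 0.05, against 1.29% of all genes. At 8, 9, 10 and 11 somites no member had an unadjusted p-value under 0.05, and 1.65, 0.971, 1.11 and 2.08% of all genes did. The 6-somite values without Smchd1matΔ replicates 1 and 2, the pair with the high ribosomal share, were 0.59 ± 0.35 (SE) for Sox2 and 0.68 ± 0.48 (SE) for Sox3, with an adjusted p of 0.955 and 0.962. The highest Sox2 level at 6 somites, 83.8 CPM, stood on 76 counts in the shallowest library.

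Every Smchd1matΔ embryo was above every Smchd1wt embryo for Sox2 and Nkx1-2 at 7 somites, where 3.67% of genes showed this and 2.14% the opposite, and for T, Evx1 and Sox3 at 8 somites, where 8.7% did and 7.08% the opposite. For Mixl1 every Smchd1matΔ embryo was below every Smchd1wt embryo at 6 somites (15.3 to 17.8 CPM against 19.9 to 26.4 CPM), as for 1.88% of genes, against 1.55% that were higher. At 9, 10 and 11 somites the 6 members tested overlapped between genotypes, where 6.45, 0.977 and 14.1% of genes were higher in every Smchd1matΔ embryo and 5.95, 0.753 and 13% lower.

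Marker genes of other cell types and of the streak were read at 6 somites as well, and none passed the adjusted threshold. Over all genes 51.4% were higher in Smchd1matΔ embryos and 11.5% were under an unadjusted 0.05. In 4 lists no tested gene was under an unadjusted 0.05. Higher there were 6 of 8 paraxial mesoderm, 11 of 12 gut and visceral endoderm, 4 of 8 endothelial and 4 of 7 allantois and extraembryonic mesoderm genes. Of the 15 axial progenitor genes only 5 were higher (median difference -0.09 in log2), and 1 was under an unadjusted 0.05. Of 7 germ cell and pluripotency genes tested, 4 were higher and 2 were under an unadjusted 0.05. The summed CPM of 12 early neural genes was 29.5 to 39.4 in the 4 Smchd1wt and 40.8 to 65.3 in the 4 Smchd1matΔ embryos, with 6 of 9 tested genes higher and 2 under an unadjusted 0.05. Dbx1 was at 0 in all 37 libraries and Olig2 in 30. The summed CPM of 10 somite markers was 20.1 to 29.8 in Smchd1wt and 7.72 to 193 in Smchd1matΔ embryos, with 4 of 4 tested genes higher and under an unadjusted 0.05, while Pax1 was at 0 in all libraries and Uncx in 34. The 9 erythroid genes summed to 67.2 to 149 CPM in Smchd1wt and 39.7 to 3132 CPM in Smchd1matΔ embryos, with 9 of 9 higher and 3 under an unadjusted 0.05. The 12 streak and node partners summed to 55.8 to 62.5 CPM in Smchd1wt and 70.4 to 118 CPM in Smchd1matΔ embryos, with 7 of 9 tested genes higher and 3 under an unadjusted 0.05. These 3, named after their values were seen, were Lefty2 (2.07 ± 0.73 (SE)), Nodal (1.79 ± 0.65 (SE)) and Lhx1 (1.59 ± 0.69 (SE)), with an adjusted p of 0.303, 0.313 and 0.380. The part of these genes and tissues in the Sox2 and Sox3 values at 6 somites was not tested.

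**Figure D3:**
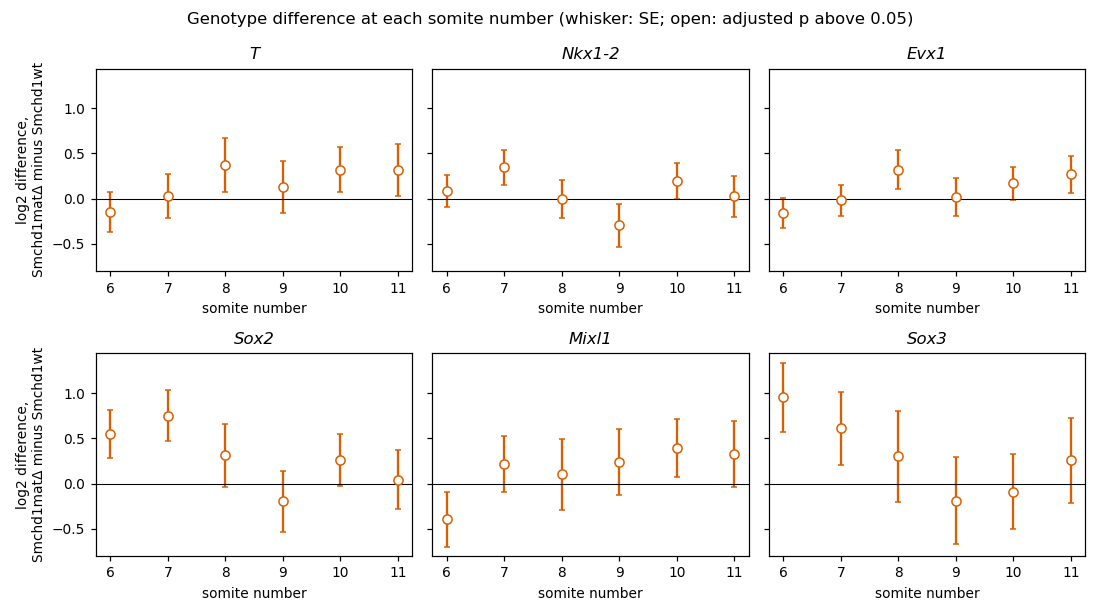
Difference between genotypes (y axis, log2, Smchd1matΔ minus Smchd1wt) at each somite number (x axis) for the 6 members tested, with the SE as a whisker. Open points mark an adjusted p above 0.05, which holds for all 36, and Sox2 and Sox3 show their highest values at 6 and 7 somites.

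The difference in slope between genotypes was tested directly, and no member and 0% of genes passed (edgeR 0 of 14733, with 540 under an unadjusted 0.05, and DESeq2 0). Sox3 had a difference of -0.20 ± 0.10 (SE) log2 units per somite, Smchd1matΔ minus Smchd1wt, with an unadjusted p-value of 0.0453, and Sox2 of -0.13 ± 0.07 (SE) with an unadjusted p-value of 0.068. T, Mixl1 and Evx1 had positive values of 0.08 ± 0.06 (SE), 0.12 ± 0.08 (SE) and 0.07 ± 0.05 (SE), and Nkx1-2 had -0.04 ± 0.05 (SE). Each of the 6 had an adjusted p of 0.9998 in this fit, so the fall of Nkx1-2 in one genotype was not distinguished from that in the other.

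The slope of Nkx1-2 was set beside other genes of the caudal end. Of 15 axial progenitor signals and factors tested in Smchd1wt embryos, 1 rose and 2 fell: Cyp26a1, which clears retinoic acid, had a slope of 0.20 ± 0.04 (SE), Cdx1, a caudal homeobox gene, of -0.34 ± 0.04 (SE), and the Wnt ligand Wnt8a of -0.32 ± 0.06 (SE) log2 units per somite, with adjusted p = 0.00332, 2.66e-05 and 0.00292. In Smchd1matΔ embryos 3 of the 15 rose and 3 fell. Cyp26a1 (0.30 ± 0.04 (SE)), Fgf17 (0.13 ± 0.03 (SE)) and Rspo3 (0.13 ± 0.03 (SE)) rose, and Cdx1 (-0.46 ± 0.06 (SE)), Wnt8a (-0.47 ± 0.09 (SE)) and the Wnt target Sp5 (-0.15 ± 0.03 (SE)) fell. The median slope of the 15 genes was -0.02 in Smchd1wt and 0.04 in Smchd1matΔ embryos, against -0.0018 and 0.0025 over all genes.

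Among 12 partners of Eomes and Mixl1 in the streak and node, 10 were tested in Smchd1wt and 3 fell, while 11 were tested in Smchd1matΔ and 2 fell, with none rising in either. The Nodal co-receptor Cfc1 had slopes of -0.68 ± 0.07 (SE) in Smchd1wt and -0.66 ± 0.08 (SE) in Smchd1matΔ embryos, and Lhx1, a LIM homeobox gene, of -0.50 ± 0.12 (SE) and -0.82 ± 0.14 (SE). Mesp1, a factor of nascent mesoderm, had -0.76 ± 0.16 (SE) in Smchd1wt embryos (adjusted p = 0.0055). Median slopes of the list were -0.14 and -0.11 log2 units per somite. Of 10 paraxial mesoderm genes, which act downstream of T, none passed in either genotype (8 tested in Smchd1wt and 10 in Smchd1matΔ), with 3 under an unadjusted 0.05 in each and medians of 0.07 and -0.0028. Of 12 early neural genes, 10 were tested in each genotype: Sox1 rose in Smchd1wt (0.41 ± 0.12 (SE), adjusted p = 0.0354) and Nkx6-1 fell in Smchd1matΔ embryos (-0.77 ± 0.17 (SE), adjusted p = 0.0183). Both genes were low, with a median of 0.574 and 0.604 CPM.

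**Figure D4:**
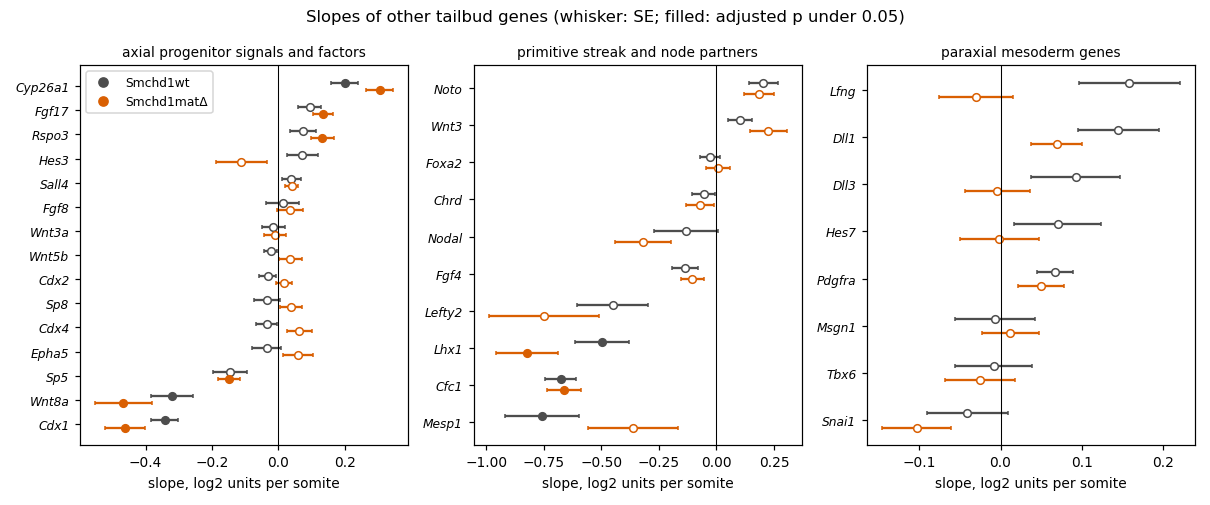
Slopes in log2 units per somite (x axis, own scale in each panel) of the axial progenitor, streak and node, and paraxial mesoderm genes tested in both genotypes, with the SE as a whisker, grey for Smchd1wt and orange for Smchd1matΔ. Filled points mark an adjusted p under 0.05: Cdx1 and Wnt8a fell and Cyp26a1 rose in both genotypes, and no paraxial mesoderm gene passed.

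Among the other marker lists, 4 of 8 endothelial genes rose in each genotype (Emcn, Cdh5, Tie1 and Tal1), and of 8 germ cell and pluripotency genes Pou5f1 fell, with a slope of -0.53 ± 0.07 (SE) in Smchd1wt and of -0.59 ± 0.07 (SE) in Smchd1matΔ embryos. In Smchd1wt, 5 of 12 gut and visceral endoderm genes fell, led by Spink1, Trap1a, Apob and Ttr, and in Smchd1matΔ embryos none of the 12 passed. The globin gene Hbb-y rose in both genotypes, 1 of 9 erythroid genes in each. No gene of the somite or the allantois and extraembryonic mesoderm lists passed in either genotype.

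To see how the members varied between embryos of one genotype and somite number, log2 CPM were centred on each of the 12 group means and the 15 pairs of tested members were correlated over 37 embryos, with 100000 two-sided permutations within groups. The streak factors T and Mixl1 had r = 0.68 and rho = 0.63 (permutation test, adjusted p = 0.0362 and 0.0188). Mixl1 and Evx1 had r = 0.68 and rho = 0.60 (permutation test, adjusted p = 0.0281 and 0.0188), and Sox3 and Nkx1-2 had r = 0.52 and rho = 0.43 (permutation test, adjusted p = 0.0281 and 0.1). These 3 of 15 pairs passed the test on r, and the first 2 of them also on rho. T and Sox2, the pair that marks neuromesodermal progenitors, had r = 0.26 and rho = 0.11 (permutation test, adjusted p = 0.403 and 0.689).

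No pair passed without Smchd1wt replicate 1 at 10 somites, or without the 2 embryos farthest from the median of the first gene. Without that replicate, r was 0.51 for T and Mixl1, 0.49 for Mixl1 and Evx1, and 0.50 for Sox3 and Nkx1-2 (permutation test, adjusted p = 0.167, 0.103 and 0.127). Without the 2 farthest embryos of each pair r was 0.55, 0.43 and 0.60 (permutation test, adjusted p = 0.126, 0.15 and 0.0949). Within genotypes r was 0.68 over 21 Smchd1wt and 0.69 over 16 Smchd1matΔ embryos for T and Mixl1, 0.79 and 0.24 for Mixl1 and Evx1, and 0.47 and 0.59 for Sox3 and Nkx1-2. Among the pairs that did not pass, some had opposite signs in the 2 genotypes. In the same order r was 0.66 and -0.82 for Nkx1-2 and Mixl1, 0.74 and -0.54 for T and Nkx1-2, and 0.30 and -0.67 for T and Sox3. Others kept their sign, such as T and Sox2 (0.34 and 0.17). The difference in r between genotypes was not tested.

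Smchd1wt replicate 1 at 10 somites held the lowest summed level of the members of all 37 embryos, 257 CPM against 555 to 558 CPM in the other 3 of its group. It was also the lowest for the axial progenitor list (1185 CPM against 2047 to 2132), the paraxial mesoderm list (297 CPM against 574 to 599) and the streak and node list (23.9 CPM against 37.1 to 46.5). Its markers of other tissues were high: 3723 CPM against 219 to 695 for 12 gut and visceral endoderm genes, 3945 CPM against 116 to 1688 for 9 erythroid genes, and 606 CPM against 243 to 308 for 7 allantois and extraembryonic mesoderm genes. The part of these tissues in the member levels was not tested.

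**Figure D5:**
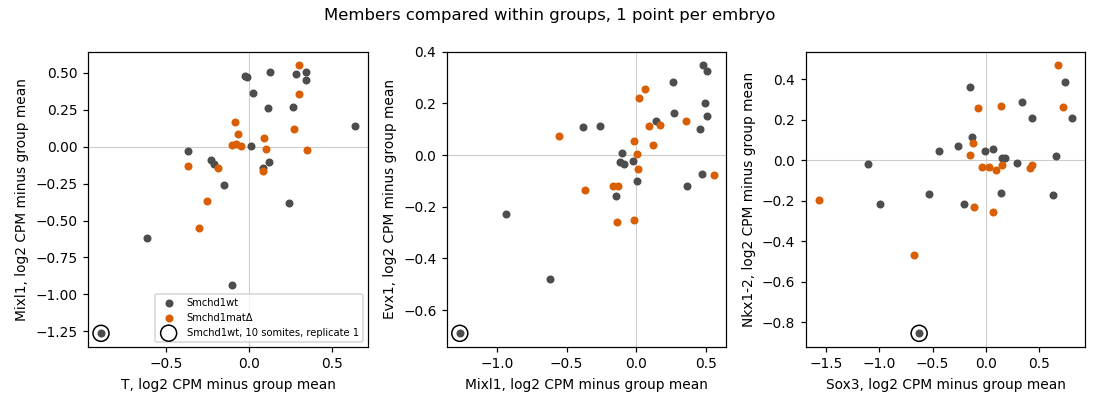
Log2 CPM minus the group mean for 3 pairs of members (x and y axes), 1 point per embryo, grey for Smchd1wt and orange for Smchd1matΔ, with a ring around Smchd1wt replicate 1 at 10 somites. The ringed embryo is the lowest point for T, Mixl1, Evx1 and Nkx1-2, while for Sox3, at -0.63, other embryos lie lower.

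Finally, the genes whose log2 CPM followed each member most closely over the 37 embryos were taken from the 14733 genes tested, by Pearson r and as a description. For Evx1 these were Cdx2 (0.85), Nkd1 (0.78) and Sp5 (0.78), the caudal homeobox gene Cdx2 and the Wnt pathway genes Nkd1 and Sp5 all being expressed in the tailbud. For Mixl1 they were Zfyve9 (0.78), Sall3 (0.78) and Fgf4 (0.77), of which Fgf4 is a streak ligand. T had Pitrm1 (0.84), Lemd1 (0.81) and Trim29 (0.80), and Nkx1-2 had Apba2 (0.87), Xkr7 (0.86) and Crmp1 (0.85). Sox2 had Lrig1 (0.75), Magi1 (0.74) and Frmd5 (0.72), and Sox3 had Tbcc (0.81), Vegfb (0.81) and Puf60 (0.79). The points share library, depth and tissue composition, so these values describe likeness in these libraries alone.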

How the data were processed

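RNA-seq was analysed for 37 single tailbuds. The authors trimmed reads with Trim Galore 0.4.4, mapped them to GRCm38.p6 with HISAT2 2.0.5 and deposited raw counts per gene from SeqMonk, without normalisation. Their log2 RPKM values for Hox genes and their tables of fold changes and p-values were not used. Of 35591 deposited rows, 49 repeated identifiers were dropped and 26 names turned into dates were restored, leaving 35542 genes.

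Counts were filtered with filterByExpr (minimum count 10), TMM-normalised and fitted with edgeR 4.0.16 in R 4.3.3, and tests were two-sided with a Benjamini-Hochberg threshold of 0.05 over all genes tested. Genotype was fitted over all stages (somite number and sex as covariates) and at single stages (12 groups and sex), and slopes on somite number within each genotype (sex as covariate). A further fit tested the difference in slope. Within-group correlations used log2 CPM (prior count 2) and 100000 permutations, for which the smallest possible p is 1e-05. Alternatives were DESeq2 1.42.0, other size factors, no filter, no sex covariate, a replicate block, and leaving out embryos, the pair with a high ribosomal share, or, added after the data were seen, stages. The edgeR fits of genotype over all stages and of slopes were tested on simulated data.

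The members, lists and tests were chosen with earlier results of these data known. Named were all members, list genes past the adjusted threshold (at most 4 rising and 4 falling by smallest adjusted p), the 3 genes most like each member, overlapping or adjacent genes, and Smchd1. Replicates are separate embryos, and depth was 0.916 to 80.6 M counts per library.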

Additional observations from a re-analysis of the deposited data

Results flagged for a closer look

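An embryo far from its group was looked for in each of the 6 tested members in the 4 groups of 4 embryos, and 2 of these 24 cases held one, where chance gives about 1 in 20. T, the streak and mesoderm factor, measured 102 CPM in Smchd1wt replicate 1 at 10 somites, against 227 to 239.7 CPM in the other 3 embryos of the group. This tailbud also had the lowest summed level of the members and 3723 CPM of gut and visceral endoderm markers, and the part of that tissue was not tested. Nkx1-2 measured 164 CPM in Smchd1wt replicate 2 at 7 somites, against 190.3 to 193 CPM in the other 3, and this library held the lowest total count of the Smchd1wt embryos.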

How the results depend on the processing

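The slopes of Nkx1-2 were negative in every fit that gave a slope. Genes with a slope in Smchd1wt, 1036 in the reported fit, numbered 1556 by DESeq2, 128 with somite number as a factor (Nkx1-2 adjusted p = 0.39998), 96, 674 and 358 without the embryos of 6, 9 and 11 somites, and 687 to 1971 without 1 embryo (1971 without Smchd1wt replicate 1 at 10 somites, 687 without Smchd1wt replicate 1 at 11 somites). In Smchd1matΔ the 478 genes became 1121 by DESeq2, 301 without the pair with a high ribosomal share, 217, 139, 231 and 207 without the embryos of 6, 7, 10 and 11 somites, and 239 to 615 without 1 embryo (300 without Smchd1matΔ replicate 1 at 7 somites, 305 without Smchd1matΔ replicate 3 at 10 somites, 239 without Smchd1matΔ replicate 2 at 11 somites). Nkx1-2 also lost its call without the embryos of 7 somites in Smchd1wt (adjusted p = 0.0971), and without those of 7, 10 and 11 somites in Smchd1matΔ (adjusted p = 0.153, 0.114 and 0.0631). The cause was not tested.

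Without the filter on low counts, 39 genes differed in slope and 32, 2, 1 and 1 differed between genotypes at 6, 8, 9 and 11 somites, where the reported counts were 0. Leaving out 1 embryo gave 0 to 247 genes at 6 somites (247 without Smchd1matΔ replicate 4, 3 without replicate 3) and 0 to 2 at 8 somites (2 without Smchd1matΔ replicate 1). No pair of members passed the correlation test without the 2 farthest embryos or without Smchd1wt replicate 1 at 10 somites, a count of 0 against 3.

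Members that changed sign without passing any test were as follows. The Smchd1wt slope of Sox2 became 0.086 and 0.012 without the embryos of 6 and 10 somites, and -0.029 to 0.012 without 1 embryo. The Smchd1matΔ slope of Mixl1 became -0.035 without 6 somites, and that of Evx1 0.024 and 0.0047 without 7 and 10 somites and -0.030 to 0.00086 without 1 embryo. Without the pair with a high ribosomal share, T was 0.045 and Nkx1-2 -0.045 at 6 somites and Nkx1-2 0.00078 at 8. With each stage fitted separately and sex left out of the fit, Nkx1-2 was 0.16 at 8 and -0.038 at 11 somites. Leaving out 1 embryo gave at 6 somites -0.018 to 0.12 for Nkx1-2, at 7 somites -0.18 to 0.21 for T, -0.042 to 0.47 for Mixl1, -0.12 to 0.099 for Evx1, at 8 somites -0.19 to 0.69 for Sox2, -0.29 to 0.23 for Nkx1-2, -0.10 to 0.40 for Mixl1, at 9 somites -0.21 to 0.40 for T, -0.44 to 0.0025 for Sox2, -1.06 to 0.34 for Sox3, -0.84 to 0.096 for Nkx1-2, -0.42 to 0.69 for Mixl1, -0.075 to 0.11 for Evx1, at 10 somites -0.35 to 0.062 for Sox3, -0.067 to 0.30 for Nkx1-2, -0.070 to 0.26 for Evx1 and at 11 somites -0.17 to 0.25 for Sox2, -0.090 to 0.19 for Nkx1-2. Within-group r became -0.0034 for T and Sox2, -0.40 for T and Nkx1-2, 0.19 for Sox2 and Sox3 and -0.26 for Sox2 and Mixl1 without the 2 farthest embryos, and 0.065 for T and Sox3 without the pair. Without Smchd1wt replicate 1 at 10 somites it was -0.071 for T and Nkx1-2, -0.24 for Sox2 and Mixl1 and -0.22 for Nkx1-2 and Mixl1.

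Whether embryos of equal replicate number share more than the number was not stated. Over 16 pairs r of their deviations was -0.29 to 0.65, and over 0.1 in 4. The pairs at 9 somites had 0.65 and 0.40. At stages with 3 or more pairs, which leave out 9 somites, 1 of 10 Smchd1matΔ embryos correlated best with its own number. With the replicate block 1 gene in place of 2 was called over all stages, and the block turned T to -0.060 at 7 somites, Sox3 to -0.14 at 8, Evx1 to -0.030 at 9, Sox3 to 0.22 at 10, and Sox2 to -0.10 and Nkx1-2 to -0.084 at 11. Eomes, with 139 counts, was fitted only without the filter and passed no test there.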
